A study of Rattus norvegicus with 9 samples.

Results

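Endoplasmic reticulum-associated degradation (ERAD) was examined in rat knee cartilage through 10 genes. They were the rows of the FPKM table whose gene name was Syvn1, Sel1l, Herpud1, Derl1, Derl2, Edem1, Os9, Erlec1, Sdf2l1, or Vcp, 10 of the 32043 genes listed. Each name stood on a single row, and the names were chosen without a threshold on the measured values. All 10 were detected and passed the filter used for testing, which kept 13898 genes. FPKM is the number of fragments counted per length of the gene and per size of the library, so that levels of genes of different length can be set side by side. In the deposited values the library size was not the number of listed reads, as described under processing.

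The endoplasmic reticulum folds the secreted and membrane proteins of a cell, which in a chondrocyte include the collagens and proteoglycans of the cartilage matrix. Proteins that fail to fold are trimmed on their sugar chains and recognised by lectins. They are then passed to a membrane complex around the ubiquitin ligase Syvn1, also called Hrd1 or synoviolin, and pulled into the cytosol by the ATPase Vcp for destruction by the proteasome. Several ERAD genes are known targets of the unfolded protein response, the program that cells start under endoplasmic reticulum stress, and synoviolin was first described in synovial cells of arthritic joints.

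Male Sprague–Dawley rats of 3 groups were sequenced, with 3 libraries in each. Rats of the control group had the joint capsule of the left knee opened and sutured only. Rats of the model group underwent the modified Hulth operation, in which the medial collateral and anterior cruciate ligaments and the medial meniscus were removed, followed by forced activity, to produce knee osteoarthritis (KOA). Rats of the SYD group had the same operation and then received an extract of Shengyu decoction (SYD), a prescription of botanical drugs, by gavage for 4 weeks at the highest dose of the study, while the labels give no dose. The rats were 8 weeks old when purchased, and tissue was taken 8 weeks after surgery. The rats of all 3 groups therefore had an opened joint, and an unoperated knee was not analysed here. The labels number the libraries without saying whether they came from separate rats, so p-values measure the spread between these libraries only.

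The libraries held 14914121 to 19510537 reads, but the share from mitochondrially encoded genes was 4.05% to 4.86% in the control group, 39.5% to 90.7% in the model group, and 23.7% to 72.7% in the SYD group. This left 14306782 to 17373645 other reads per control library, 1744769 to 11106680 per model library, and 5153851 to 12745818 per SYD library. Model 1, model 3, and SYD 3 were the libraries above 70%. The tissue label was checked against markers. Summed chondrocyte markers (Col2a1, Comp, Col11a1, and 6 others) ran from 424 to 10438 FPKM in the control group, 135 to 747 in the model group, and 92.8 to 1138 in the SYD group, and Matn3 was listed at 0 in model 1, model 3, and SYD 3. Summed B and plasma cell markers (8 genes, among them Cd79a, Jchain, and Ighm) ran from 435 to 628, 9.64 to 152, and 40.1 to 87.7 FPKM. Tnfrsf17, at 0 in every model and SYD library, was only at 0.169 to 0.322 FPKM in the control group. Marrow and blood markers were thus present in tissue labelled as cartilage. In bulk tissue of this kind, fewer cells of a type and less RNA per cell cannot be told apart.

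The data show that Syvn1, the ligase at the centre of the pathway, was the member with the clearest order of groups. It was lowest in the model group, intermediate in the SYD group, and highest in the control group, with no overlap between any of the 3 on the FPKM scale. Sdf2l1, a lumenal chaperone partner, took the same order without overlap. Of all tested genes, 20% had the model group apart below the control group. The SYD group was apart above the model group for 7.89% and below the control group for 22.2%. The share of genes with this order in all 3 groups was not counted. Erlec1, a lectin, was higher in the SYD group than in the control group on the FPKM scale. The other 7 members passed the criteria for differential expression in none of the 3 comparisons, and the spread between the model libraries was wide for most of them.

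**Figure D1:**
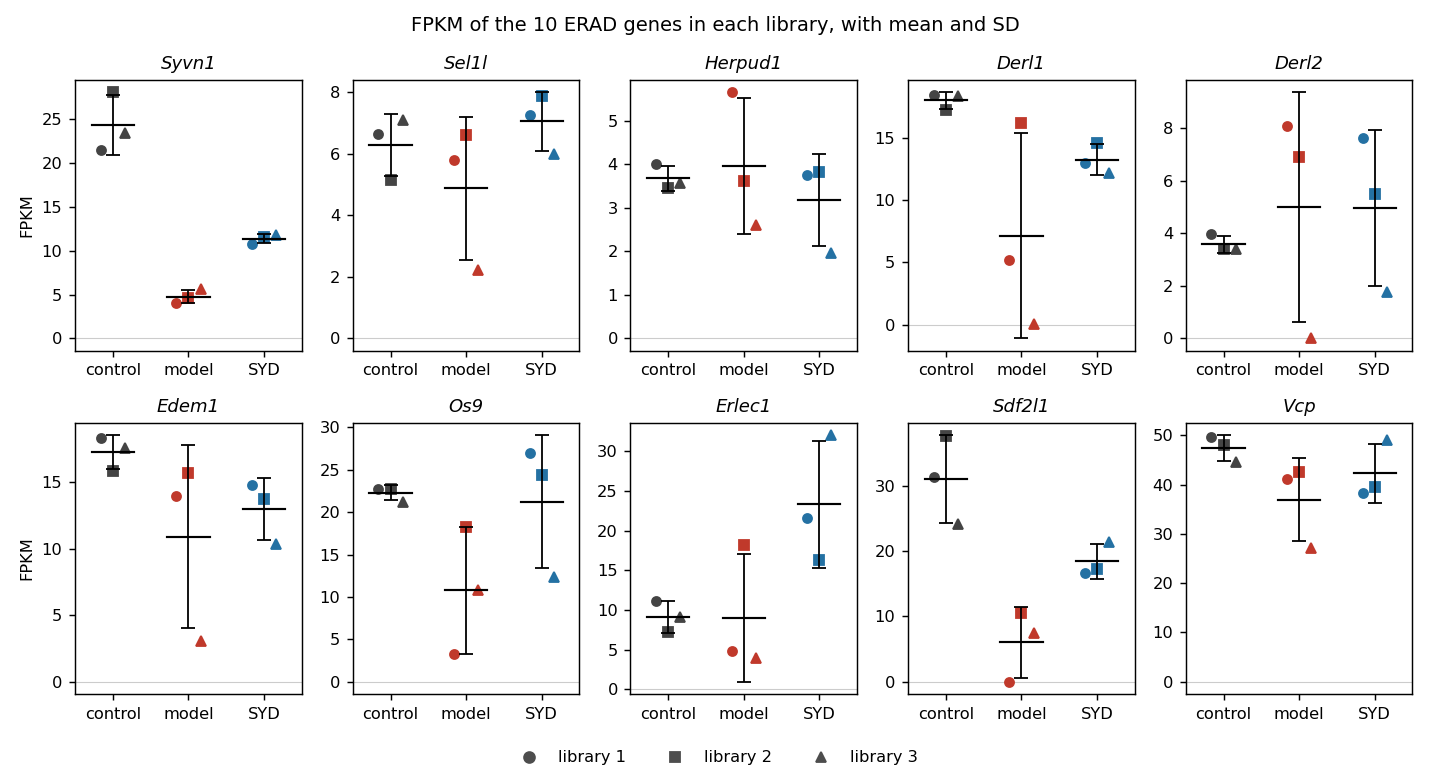
FPKM (y axis, a separate linear scale per panel) of each of the 10 ERAD genes in the 9 libraries, by group (x axis). Symbols are libraries, and horizontal lines with bars are the mean and SD of 3. The 3 groups of Syvn1 do not overlap, with model libraries at 4.06 to 5.62, SYD libraries at 10.8 to 11.8, and control libraries at 21.5 to 28.1 FPKM, whereas Derl1, Derl2, Edem1, Os9, Erlec1, and Sdf2l1 spread widely within the model group.

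Promoters were searched for the elements through which the unfolded protein response is known to act. RefSeq promoters on build GRCr8 covered 8 of the 10 members, with Derl1 and Os9 lacking an entry, and the 250 bases before each start were read on both strands. The full endoplasmic reticulum stress response element (CCAAT, 9 further bases, CCACG) was in none of the 8 and in 0.0657% of all 33469 promoters. Its second form (ATTGG, 1 further base, CCACG) was in Herpud1 alone among the 8, and in 0.0418% of all promoters. The part CCACG, which both elements contain, was in 7 of the 8, the exception being Derl2, in 34 of 57 other ERAD promoters, and in 27.2% of all promoters. TGACGTGG, whose last letters are CCACG read on the other strand, was in Vcp alone among the 8. It was in 3 of 57 other ERAD promoters, and in 0.52% of all promoters. Among the other ERAD genes, the full element was in Hspa5, Canx, Calr, and Derl3. All 8 member promoters were richer in G and C (54.8% to 74.4%) than the median promoter (51.2%). A match is a run of letters and not a site of binding.

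The promoters of 4 members are shown, Syvn1 and Sdf2l1 because their groups did not overlap in FPKM, Erlec1 because it was higher in the SYD group, and Herpud1 because it holds the second element. Capitals mark the matches named above on either strand. Syvn1 lies on the plus strand at chr1:212768658-212768907, with CCACG 146 and 108 bases before the start. Sdf2l1 lies on the plus strand at chr11:97376628-97376877, with CCACG 164 bases before the start. Erlec1 lies on the minus strand at chr14:108894298-108894547, with CCACG 66 bases before the start. Herpud1 lies on the minus strand at chr19:10614708-10614957, with CCACG 190 bases and the second element 114 bases before the start.
Syvn1: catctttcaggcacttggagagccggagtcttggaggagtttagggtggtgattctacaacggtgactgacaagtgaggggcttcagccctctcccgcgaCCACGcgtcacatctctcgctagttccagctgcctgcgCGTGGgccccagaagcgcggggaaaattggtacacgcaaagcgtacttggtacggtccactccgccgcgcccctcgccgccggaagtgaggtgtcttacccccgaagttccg
Sdf2l1: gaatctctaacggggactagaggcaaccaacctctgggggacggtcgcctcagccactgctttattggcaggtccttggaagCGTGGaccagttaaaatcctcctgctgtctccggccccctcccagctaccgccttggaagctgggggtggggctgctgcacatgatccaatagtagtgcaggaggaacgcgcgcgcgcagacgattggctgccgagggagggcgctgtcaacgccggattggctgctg
Erlec1: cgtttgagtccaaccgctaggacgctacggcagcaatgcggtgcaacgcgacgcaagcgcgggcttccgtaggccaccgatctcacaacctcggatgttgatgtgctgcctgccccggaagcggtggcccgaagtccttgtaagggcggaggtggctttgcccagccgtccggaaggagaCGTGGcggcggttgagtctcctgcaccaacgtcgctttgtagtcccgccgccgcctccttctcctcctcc
Herpud1: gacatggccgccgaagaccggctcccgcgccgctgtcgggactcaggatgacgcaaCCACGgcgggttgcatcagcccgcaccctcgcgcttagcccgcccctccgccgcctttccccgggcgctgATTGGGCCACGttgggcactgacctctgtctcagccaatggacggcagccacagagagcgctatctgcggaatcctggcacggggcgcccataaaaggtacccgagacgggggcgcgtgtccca

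Syvn1 encodes the membrane-embedded RING ubiquitin ligase of ERAD. It is on chromosome 1 at 203339619 to 203346152 on the plus strand, in the coordinates of the authors' table. Its level was 21.5, 28.1, and 23.4 FPKM in control 1 to 3, 4.06, 4.66, and 5.62 in model 1 to 3, and 10.8, 11.6, and 11.8 in SYD 1 to 3. Every model library was therefore below every SYD library, and every SYD library below every control library. The group means were 24.3 ± 3.40, 4.78 ± 0.789, and 11.4 ± 0.501 FPKM (SD, n = 3 each). The model values rested on 45, 376, and 114 reads. The coefficient of variation within the model group was 16.5%, the lowest of the 10 members, whose highest was 116% (Derl1).

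When compared with the control group, Syvn1 fell by 2.13 on the log2(FPKM + 1) scale in the model group (SE 0.25, limma adjusted p = 0.0382). For SYD against model it was higher by 1.11 (SE 0.30), which passed the criteria for differential expression given below but not adjustment over all genes (limma adjusted p = 0.723). Relative to the control group, Syvn1 in the SYD group fell by 1.02 (SE 0.14, limma adjusted p = 0.0118). An exact permutation test of the 9 libraries over the 3 groups gave p = 0.00357, which is the smallest it can give. In exact two-sided permutation tests of each pair of groups p was 0.1, also the smallest that 3 libraries against 3 allow.

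The difference of Syvn1 between the model and control groups kept its call in all 18 alternative settings, with log2 differences from -4.96 to -2.03 and adjusted p from 0.0058 to 0.254, under 0.05 in 12 of 18. The adjusted call was lost without any of control 1, control 2, control 3, or model 3 (limma adjusted p from 0.0698 to 0.0997). It was also lost with the replicate block, where no gene passed adjustment. With the mitochondrial share as a covariate the log2 difference was -2.10 (limma adjusted p = 0.115), and among the libraries under 70% mitochondrial reads, where the model group has model 2 alone, it was -2.15. The difference between the SYD and model groups was 1.11 in those libraries and kept its call in 17 of 18 settings. The exception was TPM, where the log2 difference was 2.40 and the groups overlapped (8.43 to 33.7 TPM in the SYD group, 0.823 to 10.5 in the model group). For SYD against control the difference was -0.92 without control 2 and -0.99 without SYD 1, just under the fold criterion, and the adjusted p was under 0.05 in 15 of 18 settings. It was lost without control 3, with all 9 libraries in one fit, and with the replicate block (limma adjusted p = 0.0662, 0.0786, and 0.0598). B and plasma cell markers moved with Syvn1: 7 of the 7 tested were lower in the model group and 7 of 7 in the SYD group than in the control group. Their part in the result was not tested. Between the model and SYD groups their sums overlapped. Of 7 tested neutrophil markers 4 were called lower in the model group and 5 in the SYD group than in the control group, while the sum of the list overlapped between the groups, at 2971 to 5679 FPKM in the control group, 69.2 to 7781 in the model group, and 523 to 3365 in the SYD group. Summed erythroid markers were 6362 to 15704 FPKM in the control group, 37784, 291, and 42204 in model 1 to 3, and 1294 to 13436 in the SYD group. All 9 chondrocyte markers were lower in the model group (6 called, median log2 difference -3.50) and in the SYD group (0 called, median -1.74) than in the control group. In the SYD group against the model group 8 of the 9 were higher (0 called, median 1.46). The chondrocyte sums overlapped between all 3 groups. The part of these lists was not tested either. Control 2, which had the highest Syvn1 of all 9 libraries, also had their highest B and plasma cell sum (628 FPKM) and the lowest chondrocyte sum of its group (424 FPKM).

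Syvn1 overlaps Mrpl49, a mitochondrial ribosomal protein gene on the opposite strand, over 6534 bases, which is the whole span of Syvn1. The sources used here do not state counting by strand, so reads of the pair cannot be told apart there. Mrpl49 itself was at 9.98 to 11.4 FPKM in the control group, 3.35 to 8.84 in the model group, and 6.05 to 10.8 in the SYD group, and passed the test in no comparison.

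Sel1l encodes the adaptor that stabilises Syvn1 and links it to the lumenal lectins. Its level was 6.63, 5.15, and 7.09 FPKM in the control group, 5.80, 6.59, and 2.23 in the model group, and 7.27, 7.88, and 6.01 in the SYD group. All 3 groups overlapped, and only model 3 stood below the range of the other libraries. The log2 differences were -0.40 (SE 0.42) for model against control, 0.54 (SE 0.44) for SYD against model, and 0.15 (SE 0.18) for SYD against control, none of which passed the test.

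The ratio of Syvn1 to its partner Sel1l does not depend on how a library is scaled. It was 3.25, 5.46, and 3.30 for control 1 to 3, 0.700, 0.707, and 2.52 for model 1 to 3, and 1.49, 1.47, and 1.96 for SYD 1 to 3. All control ratios were above those of both operated groups, while the model and SYD groups overlapped through model 3. The exact permutation test over the 3 groups gave p = 0.0429, for a ratio chosen after the data were seen. Syvn1 is part of the ratio, so this p is not independent of the result for Syvn1 itself. Against Vcp, a reference chosen after its values were seen, the ratio of Syvn1 was 0.434 to 0.585 in the control group, 0.0984 to 0.207 in the model group, and 0.240 to 0.292 in the SYD group. These ranges were apart, as were those of Syvn1 itself.

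**Figure D2:**
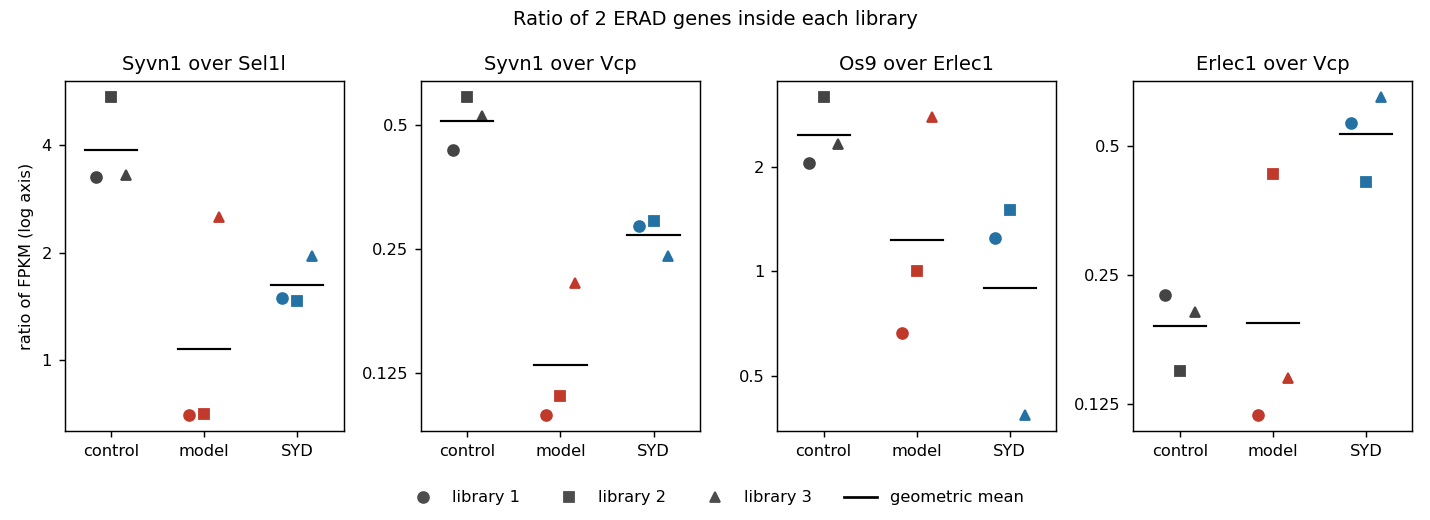
Ratio of the FPKM of 2 ERAD genes inside each library (y axis, log scale) by group (x axis), with symbols for libraries and lines for geometric means of 3. Syvn1 over Vcp separates the 3 groups (control 0.434 to 0.585, model 0.0984 to 0.207, SYD 0.240 to 0.292), and model 3 is the model library nearest the other groups in the ratio of Syvn1 to Sel1l.

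Herpud1 encodes a membrane protein that recruits substrates and partners to the Syvn1 complex and is a known target of the unfolded protein response. Its level was 4.01, 3.46, and 3.58 FPKM in the control group, 5.67, 3.63, and 2.60 in the model group, and 3.77, 3.83, and 1.96 in the SYD group. The groups overlapped in every comparison. The model group differed from the control group by 0.04 on the log2 scale (SE 0.36), with -2.55 on the TPM scale, and the SYD group differed from the model group by -0.24 (SE 0.45), with 1.00 on the TPM scale.

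Derl1 and Derl2 encode derlins, membrane proteins that form part of the channel through which substrates leave the endoplasmic reticulum. Derl1 was at 18.4, 17.2, and 18.4 FPKM in the control group, 5.17, 16.2, and 0.0496 in the model group, and 13.0, 14.6, and 12.2 in the SYD group. The control group stood above both others without overlap, but the value of model 3 was a single read and model 2 was near the control level. The difference between the model and control groups was -1.98 on the log2 scale (SE 0.97, limma adjusted p = 0.336). Without model 2 it was -2.90 and passed the criteria, without model 3 it was -0.89, and among the libraries under 70% mitochondrial reads it was -0.15. For SYD against control it was -0.42 (SE 0.12, limma adjusted p = 0.0657), below the fold criterion.

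Derl2 was at 3.97, 3.39, and 3.40 FPKM in the control group, 8.10, 6.92, and 0 in the model group, and 7.64, 5.50, and 1.77 in the SYD group. In model 3, which had no read, 3 reads would have given 0.121 FPKM, a floor that covers counting error only. In each operated group 2 libraries were above and 1 library below the control range. The ratio of Derl1 to Derl2 was 4.64, 5.08, and 5.40 in the control group, 0.638 and 2.33 in model 1 and 2, and 1.70, 2.65, and 6.90 in the SYD group. It could not be formed in model 3.

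Edem1 encodes a mannosidase-like protein that marks misfolded glycoproteins by trimming their sugar chains. Its level was 18.4, 15.9, and 17.6 FPKM in the control group, 14.0, 15.7, and 3.06 in the model group, and 14.8, 13.8, and 10.3 in the SYD group. Both operated groups lay below the control range, with model 2 close to its lower end. The log2 differences were -0.86 (SE 0.57, limma adjusted p = 0.466) for model against control and -0.40 (SE 0.17, limma adjusted p = 0.154) for SYD against control. Without model 3 the first was -0.21.

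Os9 and Erlec1 encode the lectins that read the trimmed sugar chains and hand the substrate to Sel1l. Os9 was at 22.8, 22.8, and 21.2 FPKM in the control group, 3.23, 18.2, and 10.8 in the model group, and 27.0, 24.4, and 12.3 in the SYD group. The model group was below the control group without overlap (log2 difference -1.24, SE 0.55, limma adjusted p = 0.297), and without model 2 the difference was -1.72 and passed the criteria. Without model 1 it was -0.62, and among libraries under 70% mitochondrial reads -0.27. The SYD group spanned the control range. Os9 shares 26889 bases with Cdk4 on the opposite strand, which was at 14.2 to 18.0 FPKM in the control group and 11.5 to 13.0 in the model group, also without overlap and in the same direction.

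Erlec1 was at 11.1, 7.17, and 9.10 FPKM in the control group, 4.85, 18.2, and 3.90 in the model group, and 21.6, 16.3, and 32.0 in the SYD group. Model 2 fell among the SYD libraries, and model 1 and 3 were below the control range. The SYD group was higher than the model group by 1.52 on the log2 scale (SE 0.59, limma adjusted p = 0.723), which passed the criteria although the groups overlapped. The call was lost in 11 of 18 settings. Leaving out model 2 kept it, whereas leaving out any of the other 5 libraries ended it, at log2 differences from 1.14 to 1.74. It was also lost without a filter, with TPM (2.78), with the replicate block, with the mitochondrial share as a covariate (1.17), and with voom on recovered reads (0.71). Among libraries under 70% mitochondrial reads the difference was 0.04.

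Against the control group, Erlec1 in the SYD group was higher by 1.23 on the log2(FPKM + 1) scale without overlap (SE 0.28, limma adjusted p = 0.0375), while on the TPM scale the difference was -0.23. Without SYD 3 it was 0.98, just under the fold criterion, and without any control library or without SYD 1 the adjusted call was lost (limma adjusted p from 0.0746 to 0.129). It was also lost with the replicate block, and the limma adjusted p was under 0.05 in 9 of 18 settings. With the mitochondrial share as a covariate the difference was 0.66 and was not called. Summed markers of 3 other cell types were higher in the same libraries without overlap. Summed osteoclast markers were 451 to 800 FPKM in the control group and 1738 to 2279 in the SYD group (5 of 6 genes called higher), osteoblast markers 2998 to 5957 and 7747 to 10475 (1 of 6), and endothelial markers 23.0 to 32.7 and 77.6 to 103 (4 of 5). Model 2, the model library with high Erlec1, had 1647, 7467, and 187 FPKM of the 3 lists, the highest of the model group in each. Their part in the result was not tested. The ratio of Erlec1 to Vcp was 0.149 to 0.224 in the control group, 0.117 to 0.430 in the model group, and 0.411 to 0.652 in the SYD group. The ratio of the 2 lectins, Os9 over Erlec1, was 2.05 to 3.18 in the control group and 0.385 to 1.50 in the SYD group, which did not overlap, and 0.666 to 2.78 in the model group (exact permutation test over 3 groups, p = 0.189). Erlec1 lies within 37808 bases shared with Asb3 on the opposite strand, which was at 3.29 to 4.02 FPKM in the SYD group and 3.19 to 3.44 in the control group.

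Sdf2l1 encodes a lumenal protein that works with the chaperone Hspa5 and its cochaperones. Its level was 31.4, 37.6, and 24.2 FPKM in the control group, 0, 10.5, and 7.49 in the model group, and 16.6, 17.2, and 21.5 in the SYD group. The 3 groups did not overlap, and the exact permutation test over them gave p = 0.00357, not adjusted for the 10 members. In model 1, where no read was counted, 3 reads would have given 0.775 FPKM. Sdf2l1 fell by 2.78 on the log2 scale in the model group relative to the control group (SE 0.92, limma adjusted p = 0.177), a call that was lost without control 1 (-2.76), without control 2 (-2.63), and with a pseudocount of 0.1 (-3.94) or 0.01 (-5.05), each with an unadjusted p above 0.05. The coefficient of variation of Sdf2l1 in the model group was 90.1%. Without model 1 the difference was -1.68 and still called. It was -1.46 among libraries under 70% mitochondrial reads and 0.59 with the mitochondrial share as a covariate.

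For SYD against model, Sdf2l1 differed by 2.07 (SE 0.92, limma adjusted p = 0.723) and was not called. It passed the criteria in 5 of 18 settings, without model 2 (2.73), with TPM (2.87), with quantile normalisation (1.85), with all 9 libraries in one fit, and with the replicate block. Without model 1, the library with no read, it was 0.97, under the fold criterion, and among libraries under 70% mitochondrial reads it was 0.64. For SYD against control it differed by -0.71 (SE 0.20, limma adjusted p = 0.0621), within the fold criterion. B and plasma cell markers and all 9 chondrocyte markers were lower than in the control group in both operated groups, as Sdf2l1 was. Of the 9 chondrocyte markers 8 were higher in the SYD group than in the model group. The part of both lists was not tested. Between the operated groups the sums of each list overlapped. Model 1, with Sdf2l1 at 0, had the highest B and plasma cell sum of the 6 (152 FPKM).

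Vcp encodes the ATPase that draws ubiquitinated proteins out of the membrane. It was the most abundant member in each group, at 49.6, 48.1, and 44.5 FPKM in the control group, 41.2, 42.5, and 27.2 in the model group, and 38.2, 39.5, and 49.1 in the SYD group. The model libraries were below the control libraries without overlap, and the SYD group overlapped both. The log2 differences were -0.37 (SE 0.25, limma adjusted p = 0.465), 0.21 (SE 0.28), and -0.17 (SE 0.14) for model against control, SYD against model, and SYD against control.

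By mean FPKM per group, the members were ordered Vcp, Sdf2l1, Syvn1, Os9, Derl1, Edem1, Erlec1, Sel1l, Herpud1, and Derl2 in the control group, from 47.4 to 3.59. Syvn1 and Os9 were neighbours in that order that did not differ beyond their spread (24.3 ± 3.40 and 22.3 ± 0.895, SD, n = 3), and neither did Herpud1 and Derl2 (3.68 ± 0.287 and 3.59 ± 0.333). The same held for Sdf2l1 (31.0 ± 6.70) beside Syvn1, and for Derl1 and Edem1 (18.0 ± 0.668 and 17.3 ± 1.28). Syvn1 held rank 3 in the control group, rank 9 in the model group, and rank 7 in the SYD group. Among all 13898 tested genes, its mean level stood at percentile 92.0 in the control group, 59.3 in the model group, and 81.1 in the SYD group. Erlec1 moved the other way, from rank 7 in the control group to rank 2 in the SYD group, a rank that rests on SYD 3, since Erlec1 was below Os9 in SYD 1 and SYD 2.

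Differential expression was called at an unadjusted p under 0.05 with an absolute log2 fold change over 1. When the model group was compared with the control group, 2 of the 10 members were called lower (Syvn1 and Sdf2l1) and 0 higher, against 11.2% of all tested genes called lower and 3.55% higher. An unadjusted p under 0.05 was reached by 2 members and by 19.2% of all genes, and an adjusted p under 0.05 by 1 member and by 2.59%. Groups were apart with the model group lower for 6 members and for 20% of all genes, and with it higher for 0 members and for 8.65%. On the TPM scale the model group was apart and lower for 9 members and for 72.6% of all genes. With reads scaled to the library outside mitochondrial genes, 4 members and 20% of all genes were apart in this direction.

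In the SYD group against the model group, 2 members were called higher (Syvn1 and Erlec1) and 0 lower, against 3.62% of all genes called higher and 0.532% lower. No gene passed adjustment in limma (0 of 13898, with 731 at an unadjusted p under 0.05, or 5.26%), nor in voom on reads recovered from the FPKM values (0, with 1123 at an unadjusted p under 0.05). The SYD group was above the model group without overlap for 2 members, Syvn1 and Sdf2l1, and for 7.89% of all genes, and below it for 0 members and 3.17% of all genes. On the TPM scale the 2 groups were apart for 0 members, with 5.55% of all genes apart and higher in the SYD group and 0.0576% apart and lower.

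In the SYD group against the control group, 1 member was called higher (Erlec1, with 7.25% of all genes higher) and 1 lower (Syvn1, with 9.22% lower). These 2 also passed adjustment, as did 17.3% of all genes, and 4 members and 34.5% of all genes had an unadjusted p under 0.05. The SYD group was apart and lower for 4 members (22.2% of all genes) and apart and higher for 1 (20.3%). The 3 comparisons share libraries with each other and are not independent. Over all genes, the calls for model against control were 493 higher and 1553 lower on the FPKM scale, 38 and 10407 with TPM, and 944 and 1094 with quantile normalisation. For SYD against model they were 503 and 74, with 519 and 10 with TPM and 329 and 211 with quantile normalisation, and for SYD against control 1007 and 1282, with 128 and 5901 with TPM.

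**Figure D3:**
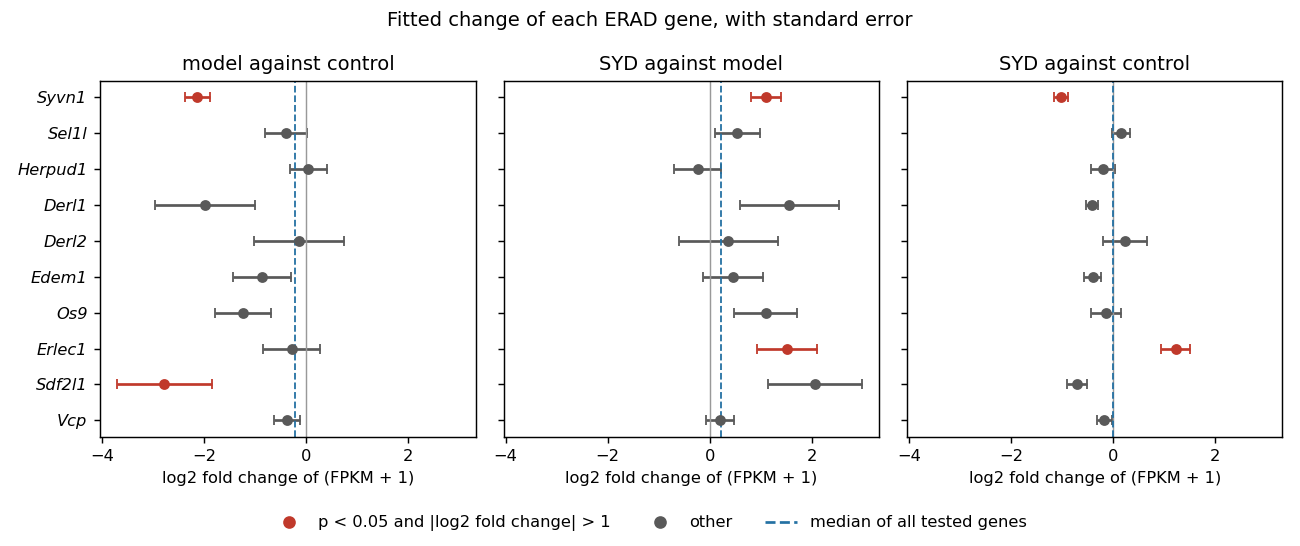
Fitted log2 difference of FPKM + 1 (x axis) of each ERAD gene (y axis) in the 3 comparisons, with standard errors as bars. Red marks members that passed both criteria, and dashed lines mark the median of all tested genes (-0.23, 0.22, and 0.00). Syvn1 is red in all 3 panels, at -2.13, 1.11, and -1.02.

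The median log2 difference of the 10 members was -0.63 for model against control, with -0.23 over all tested genes. It was 0.82 in the SYD group against the model group, with 0.22 over all genes, and -0.18 in the SYD group against the control group, with 0.00 over all genes. On the TPM scale the medians over all genes were -2.60, 1.22, and -1.31, where the mitochondrial transcripts are part of the total. Relative to the median of all genes, 8 of 10 members were lower in the model group than in the control group on the FPKM, TPM, and quantile-normalised scales, and 9 with the library outside mitochondrial genes. Within the model group, model 3 had the lowest value of 7 members and model 2 the highest of 7. In the SYD group, SYD 3 had the lowest value of 6 members and the highest of the other 4.

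The wider pathway was described through 68 other ERAD genes matched by name of 69 listed, of which 65 were tested. For model against control 0 were called higher and 7 lower, with a median of -0.50, a share close to the 11.2% of all tested genes called lower. Tor1a, a lumenal ATPase, was at 12.0, 13.7, and 13.3 FPKM in the control group, 0, 4.29, and 0 in the model group, and 11.6, 12.2, and 4.36 in the SYD group. Its groups were apart in the first comparison (log2 difference -3.00) and in SYD against model (2.46). Ube4a, a ubiquitin chain elongation factor, was at 6.09 to 7.02 FPKM in the control group, 0 to 4.02 in the model group, and 5.20 to 7.52 in the SYD group. Tmub2 and Uggt1, the latter the sensor that returns unfolded glycoproteins to the calnexin cycle, were both at 0 in model 1 and model 3 and overlapped the control group through model 2.

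In the SYD group against the model group 4 of the 65 were called higher (Tor1a, Tmub2, Ube4a, and Fam8a1) and 2 lower (Yod1 and Rnf5), with a median of 0.45, where 3.62% and 0.532% of all tested genes were called. None of the 65 was called without model 1, model 3, or SYD 1 (0 in each fit by limma). Fam8a1, a cofactor of the Syvn1 complex, was at 12.7, 11.2, and 9.53 FPKM in the SYD group, 1.81, 7.91, and 3.01 in the model group, and 5.72, 5.04, and 5.52 in the control group. The SYD libraries were thus the highest of all 9. Rnf5, a second membrane ubiquitin ligase, was at 40.8, 11.6, and 28.1 FPKM in the model group and 7.52, 10.4, and 10.2 in the SYD group, a log2 difference of -1.27 that was 0.29 on the TPM scale. Of the 65, 52 had positive differences, a larger share than the 61.9% of all tested genes, and 6 were called.

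In the SYD group against the control group 1 of the 65 was called higher and 3 lower, with a median of -0.06, where 7.25% and 9.22% of all tested genes were called. Selenos, a selenoprotein that anchors Vcp to the membrane, was at 33.3, 31.5, and 27.8 FPKM in the SYD group and 16.2, 11.3, and 15.8 in the control group, a log2 difference of 1.06 that was -0.43 on the TPM scale. Yod1, a deubiquitinase of the Vcp complex, was at 0.381 to 2.41 FPKM in the SYD group and 5.67 to 7.57 in the control group, and Uggt1 was also called lower (log2 difference -1.19).

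The proteasome degrades the extracted proteins. Of 32 subunits 1 was called for model against control on the FPKM scale, where 11.2% of all tested genes were called lower and 3.55% higher. With TPM all 32 were called lower, as were 10407 of the 13898 genes. The subunit called on the FPKM scale was Psmd3 of the regulatory particle, which was lower in the model group (6.07 to 14.5 FPKM) than in the control group (23.2 to 27.3). None of the 32 was called in SYD against model (3.62% of all genes higher and 0.532% lower) or in SYD against control (7.25% and 9.22%), and 2 subunits passed adjustment in SYD against control without passing the fold criterion. The medians were -0.06, -0.21, and -0.23 in the 3 comparisons. Psmb4, Psmb1, and Psma7 had the highest mean levels, with Psmb4 at 56.9 to 70.1 FPKM in the control group, 61.0 to 132 in the model group, and 63.9 to 89.9 in the SYD group.

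**Figure D4:**
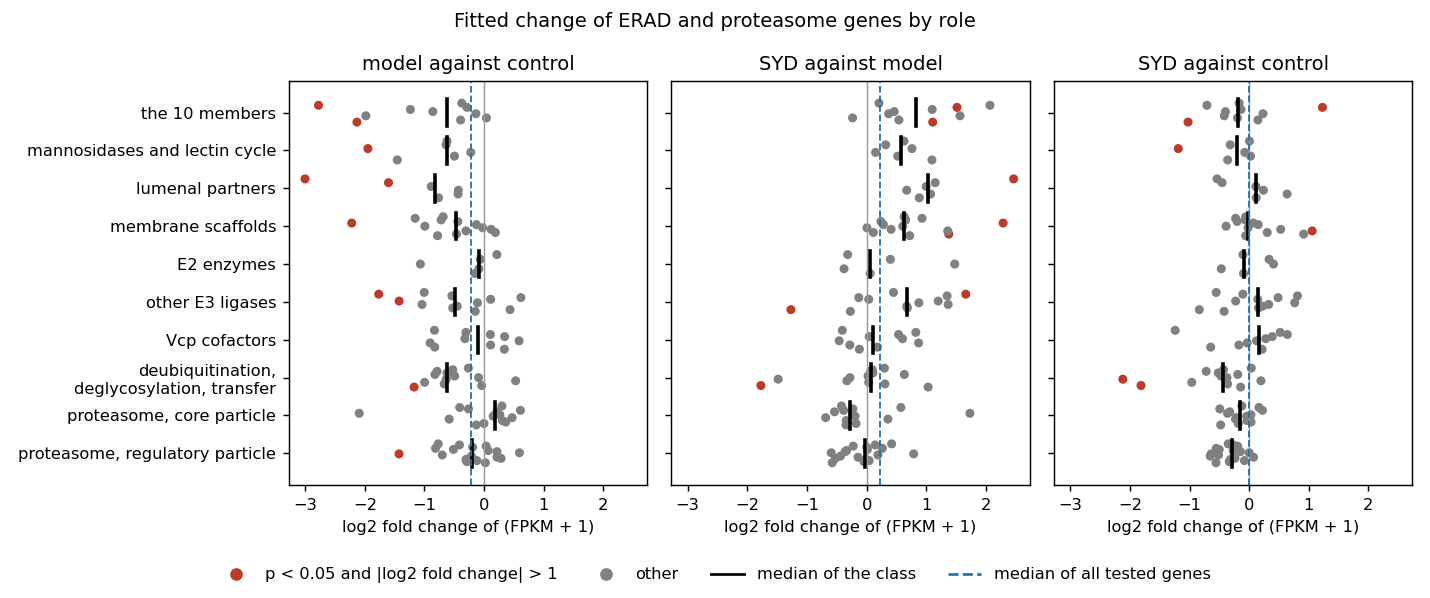
Fitted log2 difference of FPKM + 1 (x axis) of the 10 members, 65 other ERAD genes, and 32 proteasome subunits, grouped by role (y axis), in the 3 comparisons. Points are genes, red where both criteria were passed, black bars are medians of a role, and dashed lines are medians of all tested genes. For model against control 7 of the 65 other ERAD genes were called, all lower, where 11.2% of all tested genes were called lower.

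The genes whose pattern over the 9 libraries was most like that of Syvn1, by Pearson r of log2(FPKM + 1) among 5703 genes with a mean of at least 5 FPKM, were Tmem131l (r = 0.96), Uqcrc1 (r = 0.96), and Cnot1 (r = 0.96). Cnot1, the scaffold of a deadenylase complex, had 15.0 ± 1.24, 5.60 ± 0.316, and 7.88 ± 1.14 FPKM in the control, model, and SYD groups (SD, n = 3). For Vcp they included Lsm3 and Nop56 (r = 0.97 and 0.95), and for Herpud1 they included Map2k1 and Mrpl20 (r = 0.97 and 0.96). These values describe the highest of 5703 correlations over 9 libraries that fall into 3 groups.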

How the data were processed

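RNA sequencing covered 9 libraries of rat knee cartilage, 3 in each of the control, model, and SYD groups, assigned from the sample labels. The library names of the SYD group begin with CXTB, so its assignment rests on the sample titles, which name SYD. The study abbreviates its positive control group as CXB. The authors deposited FPKM per gene and library, with positions and gene lengths. The submitters' processing notes name HISAT2 2.0.5 and the human build hg38, while the table holds rat Ensembl identifiers, and the extraction text names retina while the tissue label is cartilage. The counting tool, annotation release, and strand setting are not given in the sources used here. FPKM times gene length came out as whole multiples of a step per library (100% of values within 0.1), which gave the reads. The step's implied library size was 2.01 to 2.18 times the listed reads in the control group, 0.193 to 1.44 in the model group, and 0.609 to 1.65 in the SYD group, so the deposited FPKM values are not scaled to listed reads.

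The 13898 genes whose FPKM averaged 0.5 or more over the 9 libraries entered limma 3.58.1 in R 4.3.3 on log2(FPKM + 1), with an empirical Bayes trend, two-sided, on the 6 libraries of the groups compared, with Benjamini-Hochberg adjustment over the same genes. The study's criteria were used for calls, an unadjusted p under 0.05 with an absolute log2 fold change over 1. The pseudocount of 1 understates changes of low genes. For values of one gene or one ratio, exact permutation tests over libraries were run. The fit was also run on simulated data, with the outcome not reported here. Floors of 3 reads cover counting error only. No value column was left out (0).

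The members and lists were chosen with earlier results of these data known. Named were all 10 members, up to 4 called genes per direction and list, or the 3 highest by mean FPKM, and the 3 genes most like Syvn1, Herpud1, and Vcp. Up to 3 genes of each marker list, chosen by level, could also be named. Alternatives were other pseudocounts, filters, and scalings, TPM, voom, a joint fit, a replicate block, leaving out each library, and, chosen after seeing the data, the mitochondrial share as a covariate, ratios of 2 members, and the libraries under 70% mitochondrial reads. Promoters came from RefSeq (GRCr8). Table coordinates carry no stated build. A few genes that the naming rule covers are not reported here.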

Additional observations from a re-analysis of the deposited data

How the results depend on the processing

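The number of members called (2 in each comparison) changed as follows, with the calls over all genes (higher and lower) in brackets. For model against control (493 and 1553) it was 1 with a pseudocount of 0.1 (520 and 1623) or 0.01 (498 and 1404), 10 with TPM (38 and 10407), 4 with all 9 libraries in one fit (573 and 1838), and 1 to 4 when a library was left out, 1 without control 1 (355 and 1120) or control 2 (267 and 1042) and 4 without model 2 (786 and 2558). With the mitochondrial share as a covariate it was 1 higher and 1 lower (1667 and 1183). For SYD against model (503 and 74) it was 1 without a filter (360 and 62), with TPM (519 and 10), with voom on recovered reads (1018 and 71), with the covariate (284 and 66), and among libraries under 70% mitochondrial reads (366 and 184), 3 with quantile normalisation (329 and 211) and with all 9 libraries in one fit (1044 and 176), and 1 to 5 when a library was left out, 5 without model 2 (1923 and 572) and 1 without any other. For SYD against control (1007 and 1282) it was 5 with TPM (128 and 5901), 3 with the covariate (1795 and 1713), 1 among libraries under 70% (1232 and 1371), and 1 to 2 when a library was left out (1 without control 2, SYD 1, or SYD 3). Other ERAD genes called ranged over the settings that moved them from 1 to 62 (7 in the reported fit), 0 to 17 (6), and 2 to 31 (4) in the 3 comparisons, with 62, 1, and 31 under TPM and 17 in each of the first 2 without model 2. The 7 for model against control fell to 1 without control 3, to 2 without control 1 or control 2, and to 3 without model 3. The 6 for SYD against model fell to 0 without model 1, model 3, or SYD 1, to 1 without SYD 2, and to 2 without SYD 3. Proteasome genes called ranged from 0 to 32 (1 in the reported fit) for model against control, and reached 2 without model 2 for SYD against model and 29 with TPM for SYD against control (0 in both reported fits). Genes passing adjustment for model against control fell from 360 to 0 without any one control library and to 1 without model 3.

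Several log2 differences of members changed sign. With TPM they were -2.55 (model against control) and 1.00 (SYD against model) for Herpud1, and for SYD against control -1.28 for Sel1l, -1.06 for Derl2, and -0.23 for Erlec1. With the mitochondrial share as a covariate, model against control gave 0.35 for Sel1l, -0.26 for Herpud1, 1.29 for Derl1, 1.12 for Derl2, 0.27 for Edem1, 1.06 for Os9, 2.22 for Erlec1, and 0.59 for Sdf2l1, SYD against model gave -0.32 for Derl2, and SYD against control gave 0.40 for Herpud1 and 0.75 for Os9. Among libraries under 70%, model against control gave 0.069 for Sel1l, -0.016 for Herpud1, 0.79 for Derl2, and 0.94 for Erlec1, SYD against model gave 0.052 for Herpud1, -0.22 for Derl1, -0.081 for Derl2, -0.13 for Edem1, and -0.12 for Vcp, and SYD against control gave 0.036 for Herpud1 and 0.20 for Os9. For model against control, Herpud1 was -0.033 with the library outside mitochondrial genes and -0.16 with voom, Erlec1 was 0.57 with voom, and Derl2 was 0.12 with quantile normalisation. Leaving out a library gave ranges for model against control of -0.20 to 0.25 for Herpud1, -0.70 to 0.89 for Derl2, and -0.90 to 0.084 for Erlec1, for SYD against model of -0.66 to 0.93 for Derl2 and -0.19 to 0.83 for Edem1, and for SYD against control of -0.11 to 0.71 for Derl2, -0.32 to 0.036 for Herpud1, and -0.34 to 0.20 for Os9. The cause of these changes was not tested. Among libraries under 70% the model group keeps model 2 alone, which is assumed to vary like the libraries of the other group. The covariate and the 70% limit were chosen after seeing the data.

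The replicate numbers did not pair the libraries, since deviations of same-numbered libraries correlated at -0.27 to 0.19 and model 1 correlated better with control 2 (0.19) than with control 1 (-0.20). With a replicate block the log2 differences of Syvn1 were unchanged at -2.13, 1.11, and -1.02. Its calls by the unadjusted criteria held. Erlec1 lost and Sdf2l1 gained its call for SYD against model. Other ERAD genes called went from 7 to 4 for model against control and from 6 to 2 for SYD against model. Over all genes, Syvn1 included, 0 passed adjustment in each comparison, where 360, 0, and 2407 did without the block.

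The model libraries limit the precision, with 45 reads of Syvn1, 0 of Sdf2l1, and 50 of Os9 in model 1 and 1 read of Derl1 in model 3. The mitochondrial share was 4.05% to 4.86% in the control group and 23.7% to 90.7% in the operated groups, so share and operation cannot be told apart.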

Other observations

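Sdf2l1 and Vcp, a pair chosen after their values were seen, had ratios within the SYD group of 0.435, 0.434, and 0.437 in SYD 1 to 3, libraries whose mitochondrial share ran from 23.7% to 72.7%. The same ratio was 0.633, 0.782, and 0.543 in control 1 to 3 and 0, 0.247, and 0.275 in model 1 to 3, so that the 3 groups did not overlap. The derlins Derl1 and Derl2 held a ratio of 4.64 to 5.40 in the control group and spread from 1.70 to 6.90 in the SYD group. Model 2, the model library with the lowest mitochondrial share (39.5%), was above the other model libraries and below every control library for Edem1, Os9, and Derl1 (15.7, 18.2, and 16.2 FPKM), lay within the SYD range for Erlec1 (18.2 FPKM), and lay between the other model libraries for Syvn1 (4.66 FPKM).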
